A study of Mus musculus with 7 samples.

Results

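The cells described here were the 88 cells of WT mouse pancreas that the study grouped under the name Lymph_nodes. They were taken by that deposited cluster name alone, 38 from WT mouse 1 and 50 from WT mouse 2, out of 10653 WT cells and 58473 cells in all 7 mice. Their leading genes were those of lymphatic endothelium, the inner lining of lymph vessels, so they are called lymphatic endothelial cells below. All mice were C57BL/6 and 2 months old. The 2 WT mice and the 3 i4F mice (genotype i4F-B), whose doxycycline-inducible cassette expresses Oct4, Sox2, Klf4 and c-Myc and is not limited to a cell type in the labels, drank doxycycline at 1 mg/ml in 7.5% sucrose for 7 days. The other 2 mice were wild type, did not carry the cassette and received caerulein, a cholecystokinin analogue that causes mild acute pancreatitis, at 100 µg/kg in 7 injections a day on 2 days, with no doxycycline in their labels. The i4F and caerulein tables name no cluster of this kind, so the deposited name gave no comparison between conditions and a marker rule was used there. Each mouse gave 1 library, made from the whole dissociated pancreas with no sort for any cell type.

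Lymph capillaries are blind-ended tubes that take up fluid, proteins and leukocytes from tissue and pass them on to collecting vessels, which have valves and drain to lymph nodes. The transcription factor Prox1 sets and keeps lymphatic identity, and the receptor Flt4 (VEGFR3) carries the growth signal of VEGF-C and VEGF-D. Capillary endothelium carries the hyaluronan receptor Lyve1, and it makes the chemokine Ccl21, which draws dendritic cells and T cells that bear its receptor Ccr7 into the vessel.

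Of the 4 genes given as markers of these cells, 3 had a promoter in the RefSeq promoter table (build GRCm38.p6, from 250 bases before to 50 bases after the start of the gene), and these are shown because the same genes set the cells apart from the blood vessel lining below. They lie at chr4:42773942-42774241 (Ccl21a, minus strand), chr5:22344656-22344955 (Reln, which encodes the secreted glycoprotein reelin, minus strand) and chr11:49609429-49609728 (Flt4, plus strand). Each is written 5′ to 3′, and capitals mark the letters of an ETS core as searched here.
Ccl21a: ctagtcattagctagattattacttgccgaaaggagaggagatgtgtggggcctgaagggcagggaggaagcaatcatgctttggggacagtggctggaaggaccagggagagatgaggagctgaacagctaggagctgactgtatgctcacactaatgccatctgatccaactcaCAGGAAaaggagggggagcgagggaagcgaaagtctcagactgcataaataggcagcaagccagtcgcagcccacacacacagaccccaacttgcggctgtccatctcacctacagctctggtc
Reln: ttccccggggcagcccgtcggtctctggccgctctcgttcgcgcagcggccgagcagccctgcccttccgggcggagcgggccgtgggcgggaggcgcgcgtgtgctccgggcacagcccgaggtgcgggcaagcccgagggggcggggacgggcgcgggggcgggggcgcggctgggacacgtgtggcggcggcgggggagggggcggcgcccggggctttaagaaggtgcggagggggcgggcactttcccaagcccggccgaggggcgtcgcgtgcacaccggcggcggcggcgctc
Flt4: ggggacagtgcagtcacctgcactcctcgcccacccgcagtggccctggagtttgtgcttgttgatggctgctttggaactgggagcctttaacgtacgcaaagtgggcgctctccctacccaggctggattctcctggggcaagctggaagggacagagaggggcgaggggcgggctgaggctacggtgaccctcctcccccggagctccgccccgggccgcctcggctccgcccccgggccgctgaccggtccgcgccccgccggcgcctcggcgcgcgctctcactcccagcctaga
CAGGAA or its reverse complement TTCCTG, a core of sites for ETS factors, stood once in the Ccl21a window and not in the other 2. AACAAT or ATTGTT, a core of sites for SOX factors, stood in none of the 3. The first pair is in 30.6% and the second in 10.7% of 32851 promoters of the same length. Lyve1 lies at chromosome 7, 110850607 to 110863239, and Prox1 at chromosome 1, 190118035 to 190170714, in the GENCODE annotation of the same build. The Ccl21a promoter shared 297 of 299 aligned bases (99.3%) with that of the copy Ccl21d and 97 of 299 (32.4%) with that of Ccl21b. Ccl21a has closely related copies among which reads can be split, and these 2 copies were not analysed here. The related gene listed as Gm21541 had 3 UMIs in the lymphatic cells against 11229 of Ccl21a. Reads shared among copies could not be measured, so the Ccl21a values are uncertain in that respect.

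A unique molecular identifier (UMI) marks each captured mRNA molecule, and a level below is given in CPM, which scale the UMIs of a gene by all UMIs of the cells summed in 1 mouse. The libraries held 4327 to 15138 cells and 15469018 to 64784216 UMIs. The lymphatic cells held 117019 UMIs in WT 1 and 159105 in WT 2, with a median of 2931 and 2679 per cell. The 2334 cells of the endothelial clusters of the WT table, called blood endothelial here, held 2095947 and 2461759 UMIs with a median of only 601 and 1483 per cell, and 622 of the 1122 such cells of WT 1 had under 500 genes. The barcodes of 2 of the 88 cells also stood in another library, and pairs of libraries shared 3 to 39. No doublet was called by Scrublet among the 88 cells, but the caller marked only 0.0462% of WT 1 and 0% of i4F 3, so that it did not work in those libraries.

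Lymphatic cells made up 0.878% of the cells of WT 1 (95% Clopper-Pearson interval 0.622 to 1.2%) and 0.79% of WT 2 (0.587 to 1.04%). Among endothelial cells, blood and lymphatic together, they were 38 of 1160 (3.28%, 2.33 to 4.47%) and 50 of 1262 (3.96%, 2.95 to 5.19%). The 2 mice differed by less than these intervals, which cover counting error only. Among cells with at least 500 genes the shares were 1.36% and 0.922%.

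The cluster name was checked against markers. At least 3 of the 6 lymphatic markers Lyve1, Ccl21a, Flt4, Reln, Prox1 and Mmrn1 had a UMI in 84 of the 88 cells, 49 cells had 5 of them and 25 had 4. Mmrn1 was not analysed in WT, since the caerulein table alone lists it. Ccl21a was in all 88 cells (100%, interval 95.9 to 100%), and Lyve1 in 87. Flt4 was found in 73 cells, Reln in 70 and Prox1 in 64. Of all UMIs of a gene in the WT pancreas, the cluster held 96.3% for Ccl21a, 94.3% for Reln, 98.6% for Nts (neurotensin) and 75.9% for Lyve1, from under 1% of the cells. It held 41.8% of the Flt4 UMIs, and 10.7% of blood endothelial cells had Flt4 as well. It held just 5.82% of the Prox1 UMIs, and 56.8% of duct cells had Prox1. Lyve1 was also in 24.8% of macrophages, which are known to carry it.

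The genes of lymphocytes and of the lymph node's own stroma were checked in the same cells. B cells and NK and T cells of the WT mice had clusters of their own. This check therefore cannot tell lymphatic endothelium of the pancreas from that of a node. Of 12 genes of B and T lymphocytes, 11 had 2 UMIs together in the 88 cells: 1 of Cd3e, a chain of the T cell receptor complex, and 1 of Ptprc (CD45). Cd79a and Cd3d had 0 UMIs in 88 cells, which allows up to 3.41% of cells with a UMI (3 counts of the total) and sets no limit on cells that express them. The remaining gene, Cd2, an adhesion receptor known from T and NK cells, had 44 UMIs in 23 cells (26.1%, interval 17.3 to 36.6%), 10 of WT 1 and 13 of WT 2. It was in 0.129% of blood endothelial, 0.146% of duct, 46.6% of NK and T and 55.7% of B cells. All 23 cells with Cd2 had at least 3 lymphatic markers and none had another gene of the lymphocyte list. Cxcl13 and Ccl19, chemokines of node stroma, and Chst4 and Madcam1, genes of the node's high endothelial venules, had 0 UMIs. Il7, a cytokine on which lymphocytes depend and which lymphatic endothelium also makes, was in 46 of the 88 cells at 291 and 251 CPM against 1.43 and 0.406 CPM in blood endothelial cells.

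Levels in lymphatic and blood endothelial cells were then compared within each mouse, as the log2 ratio of CPM with 20 CPM added. The clusters were built from these same genes, so the ratios are a description and carry no test. Of 9717 genes tested, 121 (1.25%) were at least 4-fold higher and 166 (1.71%) at least 4-fold lower in lymphatic cells of both mice. The median log2 ratio of all genes tested was -0.03 in WT 1 and -0.02 in WT 2. Counts moved with the amount added: with 5 CPM they were 204 and 369, and with 50 CPM 55 and 83. Scaling by TMM library sizes moved the median of all genes to -0.18 from -0.03 and gave 97 higher and 182 lower. Among cells with at least 500 genes the counts were 122 and 169.

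**Figure D1:**
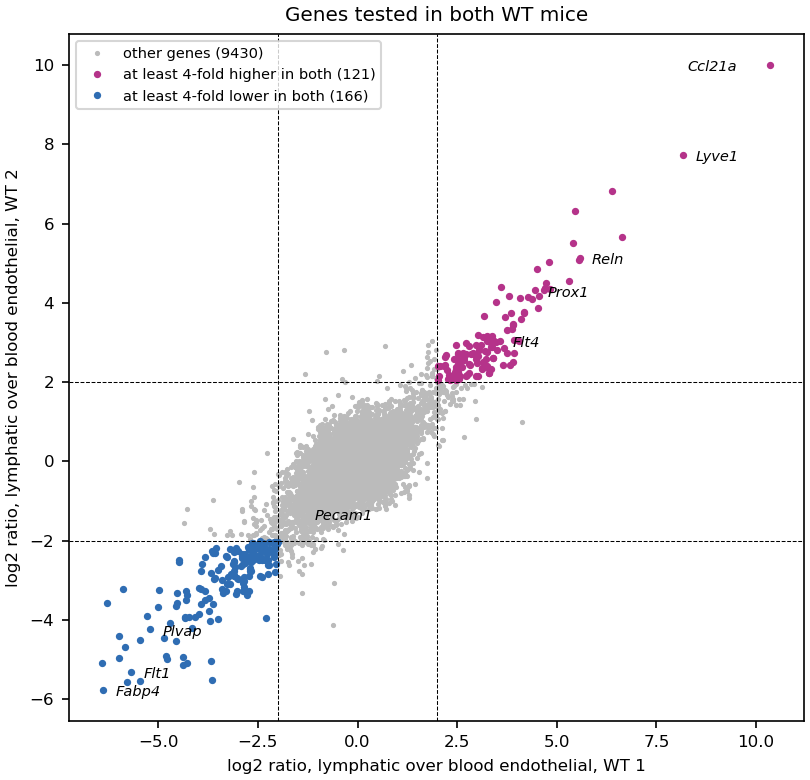
Log2 ratio of CPM with 20 CPM added, lymphatic over blood endothelial cells, in WT 1 (horizontal) and WT 2 (vertical), with 1 point per gene tested. Dashed lines mark 4-fold, the 121 genes at the upper right and the 166 at the lower left pass it in both mice, and Ccl21a and Lyve1 lie farthest out.

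Ccl21a stood at 37600.7 CPM in WT 1 and 42921.3 CPM in WT 2, against 8.59 and 21.9 CPM in blood endothelial cells. The untransformed ratio was 4378.3 (2767.0 to 7394.5, counting interval) in WT 1 and 1956.7 (1497.8 to 2607.4) in WT 2. Lyve1 stood at 6178.5 and 4921.3 CPM against 1.43 and 3.25 CPM. Both genes of the lymph capillary were thus near 0 in blood endothelial cells of both mice. Reln stood at 931 and 679 CPM and had 0 UMIs in 2334 blood endothelial cells, which allows up to 0.129% of cells with a UMI by the same rule, and it was at least 651-fold and 557-fold higher against a floor of 3 UMIs per mouse. Flt4 stood at 1145.1 and 603 CPM against 77.3 and 56.1 CPM.

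The other genes highest by the same rule came from several functions. Fgl2, a fibrinogen-like protein, stood at 2768.8 and 2583.2 CPM against 13.4 and 2.84 CPM. Igfbp5, which binds insulin-like growth factors, stood at 3161.9 and 1395.3 CPM against 11.9 and 7.72 CPM. Lcn2, a lipocalin that binds bacterial siderophores, stood at 1170.8 and 2137.0 CPM against 7.16 and 6.91 CPM. These 3 genes were not particular to lymphatic cells in the pancreas, since Fgl2 was in 16.3% and Igfbp5 in 23.3% of quiescent stellate cells and Lcn2 in 54.7% of duct cells. Fxyd6, of a family that regulates the sodium pump, stood at 1247.7 and 1125.0 CPM against 10.0 and 5.28 CPM. The peptide gene Nts stood at 914 and 685 CPM against 0 and 0.812 CPM. Outside the cluster, 3 Nts UMIs were left in all other WT cells: 2 in blood endothelial cells and 1 in a macrophage. Thy1, a surface glycoprotein, stood at 829 and 572 CPM against 1.43 and 5.28 CPM, and it was also in 26.5% of quiescent stellate and 45.1% of NK and T cells. Abi3bp, a matrix protein, Pard6g, of the Par6 polarity proteins, and Tppp3, a tubulin-binding protein, completed the group with log2 ratios between 4.50 and 5.02.

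Genes of the blood vessel lining were lowest. Fabp4, a fatty acid carrier of capillary endothelium, stood at 154 and 289 CPM in lymphatic and 14508.5 and 16727.1 CPM in blood endothelial cells. Ly6c1 stood at 25.6 and 88 CPM against 3849.3 and 3694.9 CPM. The VEGF receptor Flt1 stood at 34.2 and 44 CPM against 2774.4 and 2528.7 CPM. These 3 were in 14, 4 and 4 of the 88 cells. Nrp1, a co-receptor of VEGF-A and of class 3 semaphorins, had 1 UMI in the 88 cells against 1089.7 and 1223.9 CPM in blood endothelial cells. Car4, a carbonic anhydrase, had 0 UMIs in both mice and was at least 33.6-fold and 48.6-fold lower against the floor. Sparcl1, a matricellular protein, the long noncoding RNA AW112010, Tcim, the granule proteoglycan Srgn, Fabp5 and Scarb1, a receptor for high-density lipoprotein, had log2 ratios between -5.99 and -4.42 in both mice. Ly6a was lower less evenly, at 25.6 CPM in WT 1 and 295 CPM in WT 2 against 3583.1 and 3718.1 CPM, and 30 of its 50 UMIs in lymphatic cells came from 1 cell of WT 2.

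**Figure D2:**
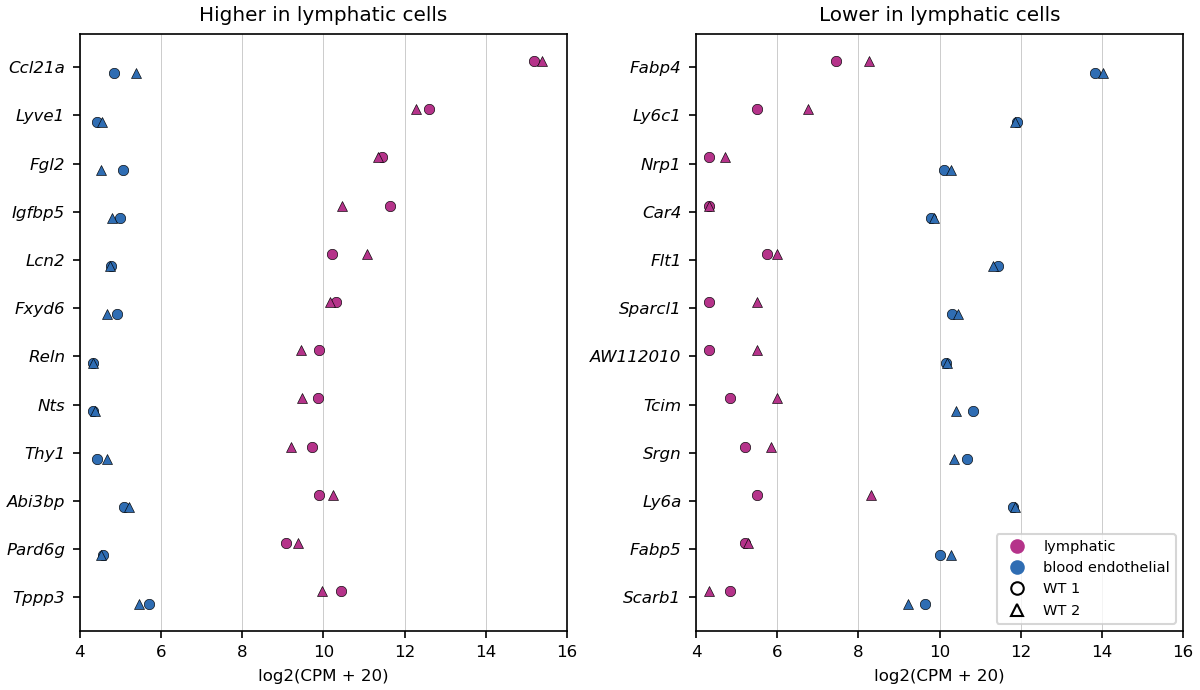
Level as log2(CPM + 20) of the 12 genes with the highest (left) and the 12 with the lowest (right) mean log2 ratio, in lymphatic (magenta) and blood endothelial (blue) cells of WT 1 (circles) and WT 2 (triangles). The 2 populations did not overlap for any gene shown, and the mice lay closer to each other than the populations did. The genes were chosen for extreme ratios past 4-fold in both mice, so this follows from the choice and is no result.

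Of 11 pan-lymphatic genes tested, 8 were at least 4-fold higher and 0 lower, against 1.25% and 1.71% of all genes tested. Among the 8, Lyve1, Ccl21a, Flt4 and Reln are the markers given for the cluster, so they add no support. The median log2 ratio of the list was 4.38 against -0.03 over all genes tested. Prox1 stood at 513 and 434 CPM against 4.29 and 2.84 CPM. Pdpn (podoplanin), which binds Clec2 on platelets, stood at 513 and 440 CPM against 0.477 and 2.03 CPM, and was also in 35.8% of quiescent stellate cells. Nr2f2 (COUP-TFII), a partner of Prox1 and a factor of venous identity, stood at 726 and 245 CPM against 46.3 and 17.9 CPM. Nrp2, the VEGF-C co-receptor, was higher by 1.62 and 1.79 on the log2 scale and missed the 4-fold line. Sox18, which acts upstream of Prox1 in the embryo, was slightly lower, by -0.59 and -0.32. Of 22 blood vessel genes, 0 were higher and 11 lower, with a median of -2.43, among them Plvap, the protein of fenestral diaphragms, at 17.1 and 119 CPM against 1354.0 and 2620.1 CPM. Esm1 and, outside that list, the junction gene Jam2 had 0 UMIs in the 88 cells.

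Of 8 capillary genes tested, 5 were higher and 0 lower, with a median of 4.21. They were Lyve1, Ccl21a and Reln, which are markers of the cluster and stand in the pan-lymphatic list too, with Stab1 and Nts. Stab1, a scavenger receptor, stood at 641 and 383 CPM against 45.3 and 34.5 CPM. Of 8 tested genes of collecting vessels and valves, 0 were higher and 0 lower, with a median of -0.26. Itga9, an integrin of lymphatic valves, came closest, at 231 and 101 CPM against 13.4 and 11 CPM. Cldn11, a claudin of lymphatic valves, had 3 and 4 UMIs in the lymphatic sums of WT mice 1 and 2, and the blood endothelial sums of both mice held 0 UMIs of it.

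Among growth factor receptors and ligands, 1 of 17 was higher (Flt4) and 4 were lower (Flt1, Nrp1, Epha4 and Pdgfb). Kdr (VEGFR2) stood at 658 and 591 CPM against 1552.0 and 1768.2 CPM, lower by -1.21 and -1.55 on the log2 scale. Calcrl and Ramp2, which form the adrenomedullin receptor, had log2 ratios of 1.47 and 0.52 for the first and -0.06 and 0.30 for the second. Vegfc and Vegfd, the ligands of Flt4, had 0 UMIs in the lymphatic cells. In blood endothelial cells Vegfc stood at 97.8 and 42.2 CPM.

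Of 22 genes of leukocyte traffic, 4 were higher: Ccl21a, Stab1, Ackr2 and Mrc1. Ackr2, a decoy receptor that clears inflammatory CC chemokines, stood at 188 and 157 CPM in 34 of the 88 cells and had 0 UMIs in blood endothelial cells. Mrc1, the mannose receptor, to which lymphocytes can bind, stood at 171 and 101 CPM against 1.43 and 1.22 CPM. Genes lower were the chemokine Cxcl12 and the junction molecules Jam2 and Jam3. Cxcl12 stood at 51.3 and 138 CPM against 510 and 846 CPM. Icam1, which leukocyte integrins bind, gave 1.14 in WT 1 and -0.30 in WT 2, with no common direction.

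Among 17 general endothelial and junction genes 1 was higher and 4 were lower, with a median of -1.55. The 1 gene higher was Cldn5, a claudin of tight junctions, at 1136.6 and 1213.0 CPM in lymphatic and 47.7 and 82.5 CPM in blood endothelial cells, found in 78 of 88 and in 3.77% of cells. Lower were Esam, Cd34, Emcn and Eng. Pecam1 stood at 598 and 427 CPM against 1610.7 and 1437.6 CPM, and Cdh5 (VE-cadherin) at 385 and 251 CPM against 961 and 757 CPM, so both shared endothelial genes were present in lymphatic cells at a lower level.

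Of 15 lipid handling genes tested, 5 were lower (Fabp4, Fabp5, Cd36, Apoe and Pltp) and 0 higher, with a median of -0.31. The fatty acid transporter Cd36 stood at 8.55 and 31.4 CPM against 538 and 514 CPM. Cavin2, a coat protein of caveolae, stood at 5657.2 and 3827.7 CPM against 2179.4 and 2155.8 CPM, and the tetraspanin Cd9 at 2743.1 and 2168.4 CPM against 703 and 344 CPM. Neither of the last 2 reached 4-fold in both mice.

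Basement membrane and matrix genes were mixed, with 1 of 19 higher and 4 lower. The one higher was Timp2, an inhibitor of matrix metalloproteinases, at 684 and 383 CPM against 19.1 and 9.75 CPM. Sparc, Sparcl1, Fbln2 and Hspg2 (perlecan) were lower. The main collagen IV chain genes Col4a1 and Col4a2 had log2 ratios between -2.34 and -1.17, while the laminin gene Lama4 was higher by 2.20 and 1.26. The haemostasis list had 1 of 11 lower, Thbs1.

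Genes of antigen presentation and interferon response lay below the blood endothelial level. All 10 class I and peptide loading genes tested had ratios below 0 in both mice, as had 3392 of all 9717 genes tested, with a median of -1.26, and 1 of them, H2-Q4, passed 4-fold. Beta-2 microglobulin (B2m) stood at 889 and 591 CPM against 2822.1 and 1730.1 CPM. Of 14 interferon-stimulated genes 4 were lower (Irf1, Iigp1, Rsad2 and Gbp4), with a median of -1.43, and Ifitm3 was an exception at 3734.4 and 5719.5 CPM against 4379.4 and 5119.9 CPM. The 5 class II genes tested had a median of -1.45 and none passed 4-fold. Of the 16 immediate early and heat shock genes none passed 4-fold, with a median of -0.46.

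**Figure D3:**
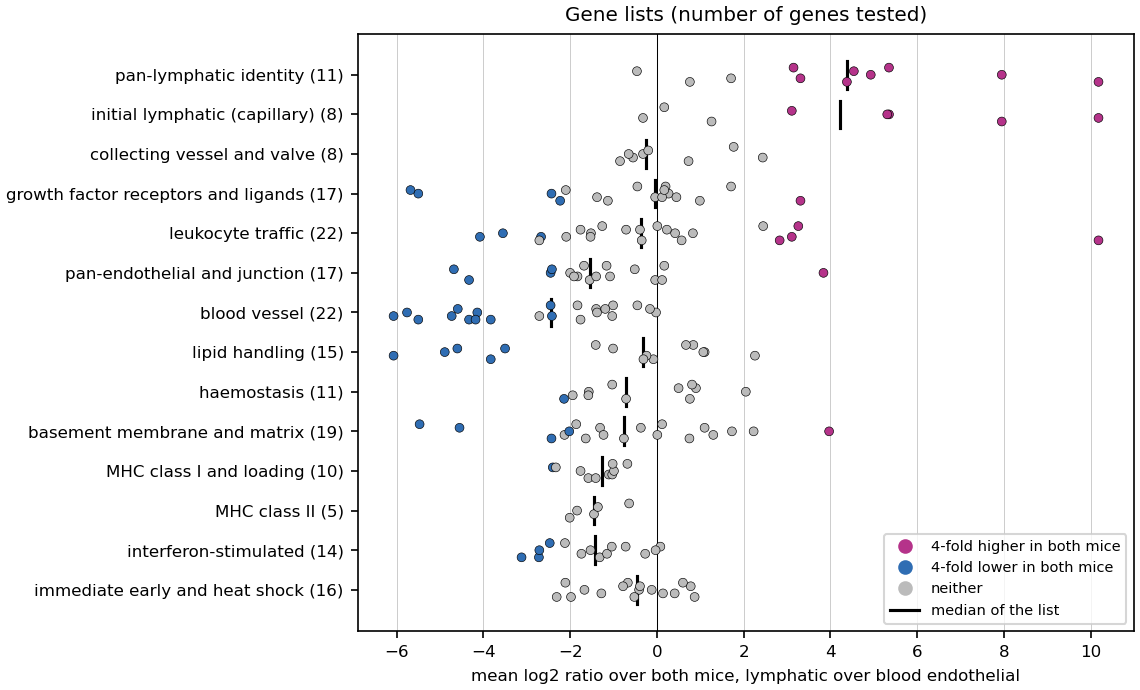
Mean log2 ratio over both WT mice, lymphatic over blood endothelial cells, with 20 CPM added, for the genes tested of 14 lists, with 1 point per gene and a bar at the median of the list. Points at least 4-fold higher in both mice stand mainly in the first 2 lists, and the blood vessel list holds 11 of the genes at least 4-fold lower.

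The 2 WT mice differed in some of the 16 immediate early and heat shock genes. Jun stood at 1179.3 CPM in lymphatic cells of WT 1 and 5059.6 CPM of WT 2, a log2 difference of 2.08, and blood endothelial cells differed by 2.09. The small heat shock protein gene Hspb1 stood at 34.2 and 710 CPM, a difference of 3.75, against 5.05 in blood endothelial cells. Fos did not share this pattern, with 6964.7 and 7366.2 CPM. Klf2 went the other way in lymphatic cells, by -1.14, and Nr4a1 differed by 2.06 in lymphatic and -0.60 in blood endothelial cells. The libraries of WT 1 and WT 2 carry names of different series in the labels, and with 1 WT mouse in each, mouse and name series cannot be told apart. All i4F libraries share the name series of WT 1, and both caerulein libraries that of WT 2.

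Variation among the 88 cells was described next. Over 1160 genes with at least 40 UMIs in the cluster, the median index of dispersion, which is 1 where counts follow depth alone, was 1.11, and 26 genes were above 5. The index lies near 1 for any gene with few UMIs per cell, so a value near 1 does not show that a gene varied little. Prox1 (0.982), Flt4 (1.28) and Reln (1.56) lay close to 1. Ccl21a ranged from 7 to 687 UMIs per cell, and from 63 to 924 per 10000 UMIs with a median of 356, with an index of 27.1. Its high count makes even modest relative differences large on this scale. Igfbp5 reached 10.4 and was in 69 cells where depth alone would give 82.9. Nts was more restricted, in 36 cells where depth alone would give 71.9, with 109 of its 216 UMIs in 5 cells and 18 cells of each mouse with at least 1 UMI. Fos (11.6) and Junb (11.5) also varied, with Fos in 70 cells and Junb in 67.

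**Figure D4:**
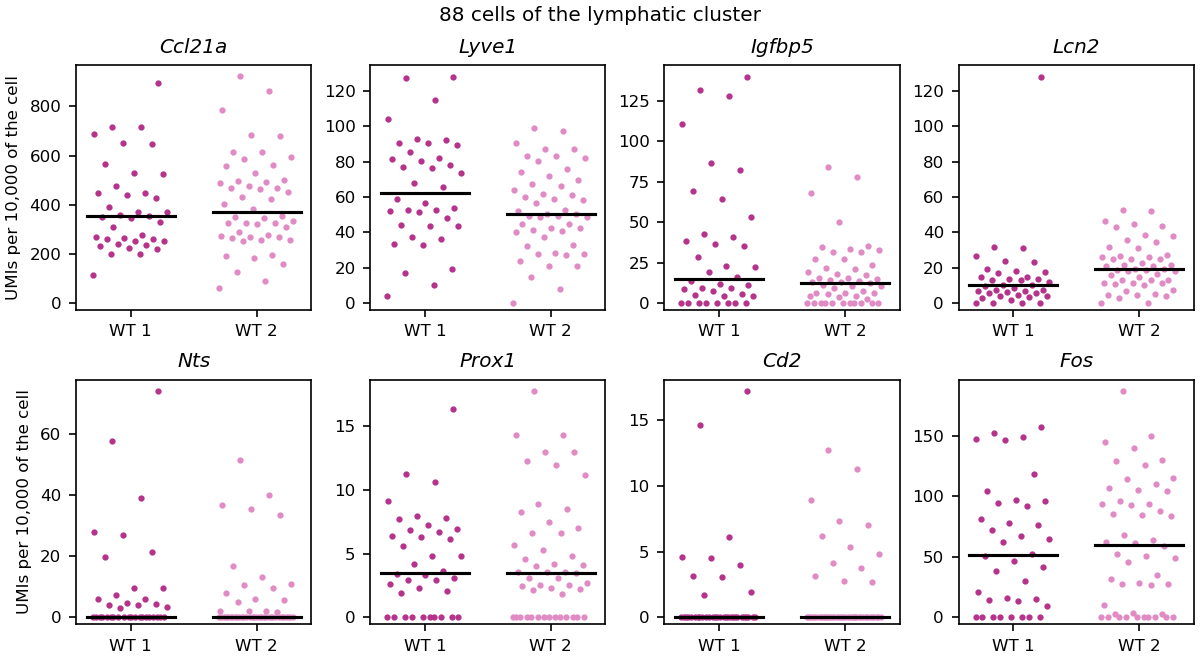
UMIs per 10000 UMIs of the cell for 8 genes in the 38 cells of WT 1 and the 50 of WT 2, with 1 point per cell and a bar at the median. Ccl21a was present in every cell, Lyve1 and Lcn2 in nearly all, and Nts and Cd2 in a minority of cells of both mice.

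RNA of other cells was measured in the cluster. A set of 20 acinar genes took 0.42% of the UMIs of lymphatic cells of WT 1 and 0.141% of WT 2, against 0.406% and 0.255% in blood endothelial cells and 22.2% and 13.9% in acinar cells. Spink1, a trypsin inhibitor of acinar cells, was in 31.8% of lymphatic, 31.9% of blood endothelial and 32.1% of NK and T cells, a like share in all 3 types. Of the lists of other cells, the macrophage list summed to 0 and 157 CPM in lymphatic and 40.6 and 78.4 CPM in blood endothelial cells, with 6 of 10 genes at 0 in lymphatic cells. The stellate list summed to 51.3 and 647 CPM and the duct list to 128 and 503 CPM. Both higher values came from WT 2, where 1 cell held 74 of the 84 Dcn UMIs, 97 of the 117 of Gsn and 44 of the 60 of Sparc, and another held 31 of the 38 of Spp1 and 23 of the 31 of Krt18. Both of these cells had Ccl21a as well, with 111 and 160 UMIs, and neither was called a doublet. Without the 2 cells, 123 genes were higher and 170 lower, an alternative added after seeing the data.

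The question of the conditions was how lymphatic endothelium stood in reprogrammed and in injured pancreas. The WT mice drank doxycycline in sucrose, and the labels of the caerulein mice give none. In every comparison of caerulein with WT, caerulein and the lack of doxycycline in sucrose therefore cannot be told apart. One rule was used in all 7 mice: a cell with a UMI of at least 3 of the 6 markers, in any cluster. Mmrn1 could count in caerulein mice alone, and without it caerulein mouse 1 had 23 cells in place of 27 and the other mice kept their numbers. In WT mice it found 87 cells, 84 of them in the lymphatic cluster. In i4F mice it found 46 cells, 38 of them in the cluster named Endothelial, and in caerulein mice 36, of which 24 were in Endothelial and 7 in the second macrophage cluster. Scrublet called 6 of these 169 cells doublets, and without them i4F mouse 2 had 5 cells in place of 9. The rule depends on depth, and the median UMIs of the cells found were 2970 and 2847.5 in WT, 1929.5, 1538 and 1749 in i4F, and 1731 and 788 in caerulein mice.

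Marker-defined lymphatic cells were 0.855% and 0.79% of all cells in the WT mice, 0.122%, 0.11% and 0.328% in i4F mice 1 to 3, and 0.178% and 0.128% in the caerulein mice. The WT mice did not overlap with either group, while the i4F and caerulein mice overlapped with each other. The mean was 0.823 ± 0.0458% in WT (SD, n = 2), and the difference was -0.636 percentage points in i4F (0.187 ± 0.123%, n = 3) and -0.67 in caerulein mice (0.153 ± 0.0357%, n = 2). By the exact two-sided permutation test p was 0.2 and 0.333, the smallest these numbers of mice allow, and 0.667 for both after adjustment over the 4 comparisons, so that the design could not reach 0.05. Among endothelial cells the shares overlapped, at 3.19% and 3.95% in WT, 3.83%, 2.01% and 3.74% in i4F, and 4.73% and 3.25% in caerulein mice. The differences there were -0.378 (exact permutation p = 0.8, adjusted 0.8) and 0.418 percentage points (exact permutation p = 0.667, adjusted 0.8). Endothelial cells as a whole numbered 1160 and 1265 in WT, 313, 448 and 669 in i4F, and 571 and 277 in caerulein mice. The direction of both endothelial differences changed with the mice or cells kept: without i4F mouse 2 the first was 0.214 and without WT 2 0.00358, and within cells of at least 500 genes the second was -1.28. Without Mmrn1 the second was 0.0781.

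The level of Ccl21a was compared in cells chosen without it, by 2 of the 4 genes Lyve1, Flt4, Reln and Prox1 within endothelial and lymphatic clusters, a choice made after seeing the data. It was 34248.4 and 39040.7 CPM in WT, 10215.9, 9971.3 and 21975.4 CPM in i4F, and 26885.8 and 20530.6 CPM in caerulein mice. Every WT mouse lay above every other mouse, and with 2 against 3 and 2 against 2 mice an exact permutation test could not reach 0.05. Chosen by 3 of the 6 markers within the same clusters, caerulein mouse 1 lay at 38809.2 CPM, between the 2 WT mice at 37326.7 and 42863.8 CPM. Ccl21a is itself 1 of the 6 markers, and all 16 cells of caerulein mouse 1 so chosen had it. The separation for caerulein was absent under this choice, which selects on Ccl21a and so is no independent check of it. The i4F mice then lay at 18837.2, 9971.3 and 27934.0 CPM, still below both WT mice, so the size of their gap also moved with the choice. Of the cells chosen without it, 10 of 12, 7 of 8 and 19 of 23 had Ccl21a in the i4F mice. In the caerulein mice these were 15 of 19 and 8 of 9, and in the WT mice 37 of 39 and 47 of 49.

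**Figure D5:**
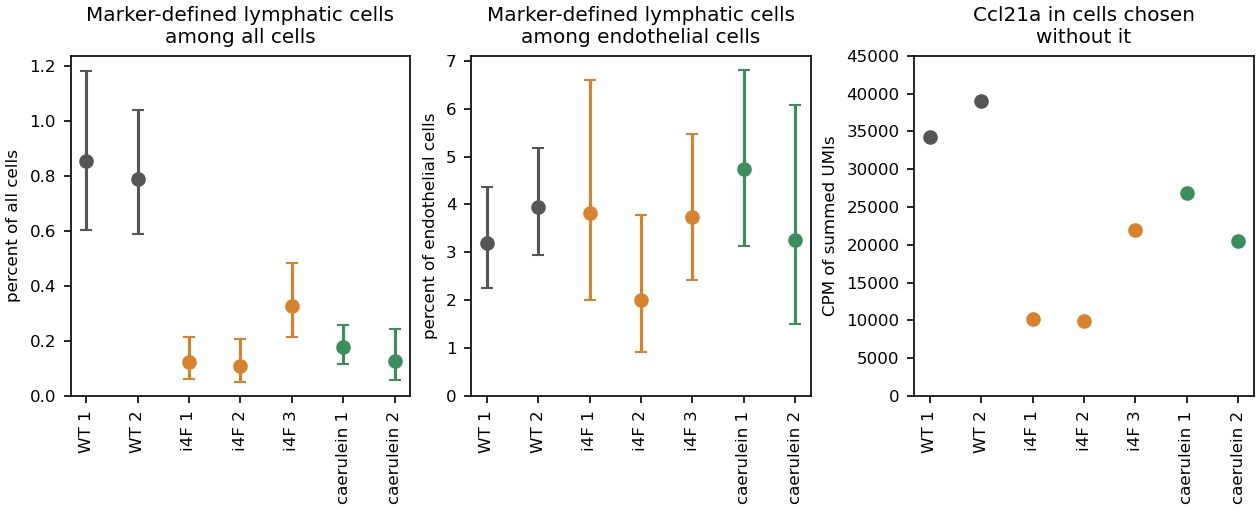
Share of marker-defined lymphatic cells among all cells (left) and among endothelial cells (middle), with exact 95% binomial intervals that cover counting error only, and the CPM of Ccl21a summed over cells chosen by Lyve1, Flt4, Reln and Prox1 (right), with 1 point per mouse. The WT mice lie above the other 5 on the left and right and among them in the middle.

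Changes in single genes were tested on UMIs summed per mouse, with edgeR's quasi-likelihood test and Benjamini-Hochberg adjustment. A mouse needed at least 10 cells, which left WT 1 and 2, i4F 1 and 3 and caerulein 1, so the lone caerulein mouse was assumed to vary like the others. Against WT, 0 of 2388 genes rose (0%) and 0 fell (0%) in i4F mice, with 175 at an unadjusted p under 0.05. DESeq2 called 1 gene, the protease inhibitor Serpina3n, higher by 4.16 ± 0.98 (SE) on the log2 scale with an adjusted p of 0.0493. Serpina3n stood at 17.2 and 90.5 CPM in WT, 1210.2, 1467.3 and 743 CPM in i4F, and 232 and 695 CPM in caerulein mice, and it was not called by edgeR.

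Against WT, 4 of 2388 genes rose in caerulein mouse 1 (0.168%) and 0 fell (0%), with 302 at an unadjusted p under 0.05. They were 1810009J06Rik and Gm2663, 2 genes named by their sequence records, Mgp, a matrix protein that inhibits calcification, and Fabp5, each with an adjusted p of 0.0423 in edgeR. Gm2663 stood at 8.61 and 0 CPM in WT, 1871.7 CPM in caerulein mouse 1 and 278 CPM in caerulein mouse 2. 1810009J06Rik had 0 UMIs in the WT lymphatic sums, where a fitted change depends on the prior count and is no bound. It stood at 1529.2 and 139 CPM after caerulein. Both genes were also higher in blood endothelial sums after caerulein. There Gm2663 went from 1.91 and 2.03 CPM in WT to 177 and 123 CPM. For 1810009J06Rik these values were 1.43 and 3.66 CPM in WT and 62.5 and 42.1 CPM after caerulein. Mgp stood at 25.8 and 11.3 CPM in WT against 648 CPM, and Fabp5 at 17.2 and 17.0 CPM against 636 CPM. Both had 0 UMIs in caerulein mouse 2, which had 9 cells. The stellate list summed to 51.7 and 2190.1 CPM in the WT lymphatic sums and 4428.6 and 278 CPM in those of caerulein mice, with 0 of 7 genes called and a median log2 change of 3.73. The duct list summed to 129 and 458 CPM in WT and 1859.5 and 834 CPM in caerulein mice. The part of such RNA in these changes was not tested. With all 7 mice Gm2663 alone of the 4 passed the filter and was not called (adjusted p = 0.136 in edgeR), and within the endothelial clusters alone none of the 4 passed the filter, so that they were not tested there. With the library name series as a term 0 genes were called after caerulein, with 86 at an unadjusted p under 0.05 in edgeR. The macrophage list summed to 0 and 158 CPM in the WT lymphatic sums but to 8575.8 and 417 CPM in those of caerulein and 8945.0, 598 and 88.4 CPM in those of i4F mice, and its part in these changes was not tested. Lyz2 (lysozyme), a macrophage gene of that list, stood at 0 and 5.66 CPM in WT, 3205.2 and 139 CPM in caerulein, and 1105.0, 217 and 53.0 CPM in i4F mice. The 20 acinar genes took 0.42% and 0.131% in WT, 1.36% and 0.209% in caerulein, and 0.103%, 0.473% and 6.2% in i4F mice. The part of acinar RNA in these changes, among them those of 1810009J06Rik and Gm2663, was not tested.

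Beside Mgp and Fabp5, edgeR called no member of the lists within lymphatic cells. DESeq2 called 14 genes after caerulein, among them Cavin2, which was lower by -2.97 ± 0.84 (adjusted p = 0.0487), and the list members Apoe (0.0487), Clu (0.000453), Lyz2 (0.000453) and Tyrobp (0.0142), which were higher. Of 4 pan-lymphatic genes tested, none was called in i4F or caerulein mice. Their median log2 changes were -0.58 and -0.94, against 0.03 and -0.03 over all genes. The general endothelial list had medians of -0.95 and -1.08 and the blood vessel list -0.71 and -1.42. The shift was thus not particular to lymphatic genes. Pdpn stood at 500 and 402 CPM in WT, 158, 326 and 354 CPM in i4F, and 232 and 139 CPM in caerulein mice, every WT mouse above every other (adjusted p = 0.789 and 0.599 in edgeR). Thy1 stood at 827 and 555 CPM, 210, 272 and 248 CPM, and 171 and 556 CPM. Cavin2 stood at 5677.0 and 3599.3 CPM, 684, 870 and 1891.9 CPM, and 551 and 1668.5 CPM (adjusted p = 0.641 and 0.314 in edgeR). Nts stood at 922 and 617 CPM in WT, 1000, 815 and 725 CPM in i4F, and 563 and 695 CPM in caerulein mice, with overlap between WT and both groups. Gucy1b1, a subunit of soluble guanylate cyclase that was chosen after its values were seen, stood at 569 and 498 CPM in WT, 26.3, 109 and 53.0 CPM in i4F, and 36.7 and 0 CPM in caerulein mice (adjusted p = 0.503 and 0.2 in edgeR). The genes of this paragraph missed the threshold in edgeR, and with 5 mice that does not show that their levels were alike.

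Whether a change differed between lymphatic and blood endothelial cells was tested as the interaction of cell type and group in edgeR, with the mouse as a term. For edgeR, the value after ± is the absolute log2 change divided by the square root of its F statistic. It is an approximation and not a fitted standard error as in DESeq2. Of 7813 genes tested, 6 were higher (0.0768%) and 27 lower (0.346%) in the lymphatic than in the blood endothelial change of i4F, with 455 at an unadjusted p under 0.05. For caerulein, 41 were higher (0.525%) and 45 lower (0.576%), with 477 at an unadjusted p under 0.05. DESeq2 called 0 and 13 in all, and a fit without the mouse term called 0 for both. A lower interaction did not always mean a fall in lymphatic cells: of the 45 genes lower after caerulein, the blood endothelial change was the larger in 28, with a median of 1.67 against -0.63 in lymphatic cells. Of the 41 higher, the lymphatic change was the larger in 35, with a median of 2.63 against -0.08. None of the 41 was called within the endothelial clusters alone, where 37 of the 45 lower genes were. The higher genes included Cd74, H2-Aa and H2-Ab1 of MHC class II, named after their values were seen. The class II list summed to 25.8 and 996 CPM in WT lymphatic sums and 2434.5 and 0 CPM in those of caerulein mice. Of the 20 acinar genes, they included Spink1, Reg2, Reg3a, Reg3b, Reg3g, Dmbt1, Pnliprp2 and Try10. The part of acinar RNA in these interactions was not tested.

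Pdpn illustrates the first kind. It went from 500 and 402 CPM to 232 and 139 CPM in lymphatic sums without passing the test there, while blood endothelial sums went from 0.477 and 2.03 to 53.9 and 29.2 CPM (interaction -6.10 ± 0.70, adjusted p = 1.9e-14 in edgeR). Thy1 gave -4.91 ± 0.68 in the same way, and Mrc1, which stood at 1.43 and 1.22 CPM in blood endothelial sums of WT and at 149 and 55.1 CPM after caerulein, gave -5.04 ± 0.71. Blood endothelial sums held macrophage list genes at 40.6 and 78.4 CPM in WT and 8376.3 and 5745.3 CPM after caerulein. The stellate list stood there at 383 and 659 CPM in WT and 1716.2 and 729 CPM after caerulein. For the duct list the values were 339 and 112 CPM in WT and 1307.9 and 1341.5 CPM after caerulein. The part of such RNA in these interactions was not tested. Cldn5 stood at 1145.7 and 1114.9 CPM in lymphatic sums of WT, 368, 870 and 743 CPM of i4F and 257 and 695 CPM of caerulein mice, while blood endothelial sums of all 7 mice lay between 47.7 and 152 CPM. Its interaction was -2.0 ± 0.48 for i4F (adjusted p = 0.0102) and -2.64 ± 0.60 for caerulein (adjusted p = 0.00194, edgeR).

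In i4F mice, Cd2 stood at 146 and 158 CPM in the lymphatic sums of WT and at 0, 0 and 35.4 CPM in those of i4F mice 1 to 3, with an interaction of -7.15 ± 1.44 (adjusted p = 0.000439 in edgeR). Within lymphatic cells alone Cd2 did not pass the test (-2.76 ± 0.99, adjusted p = 0.641 in edgeR). Blood endothelial sums held Cd2 at 0.477 and 0.812 CPM in WT and 2.39, 0 and 23.1 CPM in i4F mice. Those of i4F mouse 3 also held the T cell receptor genes Trac at 25.8 and Trbc2 at 31.3 CPM. In blood endothelial sums the lymphatic marker Ccl21a stood at 8.59 and 21.9 CPM in WT and 45.3, 12.6 and 416 CPM in i4F mice. After caerulein it stood at 0 and 16.2 CPM, while Reln had 0 UMIs in all 7 mice. The i4F and caerulein tables name no lymphatic cluster, so any lymphatic cells that the rule missed could stay in these sums. The part of such RNA in the interactions was not tested. Fn1 (fibronectin), at 60.3 and 108 CPM in WT, and Igfbp3, at 164 and 84.9 CPM, had 0 UMIs in all i4F lymphatic sums. So did Ptgs2 and Meg3, which stood at 56.6 and 198 CPM in WT 2 but had 0 UMIs in WT 1 as well. The stellate list summed to 51.7 CPM in WT 1 and 2190.1 CPM in WT 2, and the part of such RNA was not tested. Hspa1a, a heat shock chaperone gene, was higher, at 388 and 600 CPM in WT and 1604.8, 435 and 601 CPM in i4F lymphatic sums, against 1002.9 and 3384.6 CPM and 546, 325 and 1001.0 CPM in blood endothelial sums (2.25 ± 0.54, adjusted p = 0.00884 in edgeR). Here i4F mouse 1 lay well above both WT mice, while i4F mouse 2 lay between them and i4F mouse 3 level with WT 2. Hspa1a was not called with all 7 mice (adjusted p = 0.103 in edgeR), and the blood endothelial sums of the WT mice differed from each other by 1.73 on the log2 scale. Of the pan-lymphatic genes tested, 2 of 6 were lower in both conditions (Pdpn and Thy1) and 0 higher, with a median of -0.93 for i4F and -1.35 for caerulein against -0.21 and -0.16 over all genes. The 2 conditions share their WT mice, so that these values are not independent. For i4F, 3 of 9 stellate list genes (Col1a1, Col1a2 and Col3a1) were lower as well and 0 higher, with a list median of 1.12. Blood endothelial sums held that list at 383 and 659 CPM in WT and 1109.1, 215 and 316 CPM in i4F mice. The part of such RNA was not tested.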

How the data were processed

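Pancreata of 7 mice (2 WT, 3 i4F and 2 caerulein) gave 1 library each. According to the study's methods, the authors aligned 10x Genomics 3′ reads to GRCm38 with Cell Ranger, whose version is not given in the sources used here, and ran SoupX against ambient RNA. Their filters kept cells of 150 or more genes and at most 5% mitochondrial UMIs. Each value in the deposited tables is the UMI count of 1 gene in 1 cell, whole throughout, and the counts of a cell add up to its deposited total. It is not stated if SoupX had been applied to them. The deposited percent of mitochondrial UMIs per cell was computed by the authors in Seurat. Clusters were named by the authors after SCTransform, 20 principal components and a resolution of 0.2.

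UMIs were summed per mouse over the lymphatic cluster and over the endothelial clusters and given as CPM. Genes with at least 10 UMIs in both sums together in each mouse were tested against a 4-fold line with 20 CPM added, with no p. The text names the 12 genes with the highest and the 12 with the lowest mean ratio among those past the line with at least 100 CPM in the higher population, the 4 markers, and list members with at least 100 CPM in either population. In conditions it names list members and, in each direction, the 5 genes or fewer that changed most among those past an adjusted p of 0.05 with no overlap between groups. Genes outside this rule are named as such or as values of another cell type's RNA or of single cells.

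Shares were compared with exact two-sided permutation tests, and summed UMIs with edgeR 4.0.16 (quasi-likelihood, TMM, filterByExpr) on genes listed in all 3 tables, with the marker genes not reported from it. Scripts were tested on simulated data. Replicates are separate mice. Replicate numbers are shared by the groups in the labels. Same-numbered lymphatic sums did not deviate together (correlations -0.07 to -0.09 for i4F and -0.24 for caerulein over 1685 genes). The mice were not treated as paired, but with so few mice these correlations cannot exclude a pairing. Results were recomputed with other pseudocounts, DESeq2 1.42.0, no TMM, no filter, other marker rules, cells with at least 500 genes, cells thinned to 1000 UMIs, doublets removed (Scrublet in scanpy 1.11.5, 30 components), the library name series as a term, a replicate block and each mouse left out. Members and lists were chosen with earlier results of these data known.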

Additional observations from a re-analysis of the deposited data

Results flagged for a closer look

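The change of 19 genes differed between lymphatic and blood endothelial cells by the interaction test in edgeR and met the rule for named genes. Values are the lymphatic minus the blood endothelial log2 change against WT, with the adjusted p. The value after ± is the absolute change divided by the square root of the edgeR F statistic, an approximate standard error.

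For i4F mice, the values were higher for Ighm, an antibody heavy chain (4.23 ± 0.62, adjusted p = 3.72e-08), Stmn1 (3.58 ± 0.73, 0.000495), Pycard (3.53 ± 0.92, 0.0291) and Hspa1a (2.25 ± 0.54, 0.00884). They were lower for Cd2 (-7.15 ± 1.44, 0.000439) and for Ptgs2 (-13.41), Meg3 (-11.15), Fn1 (-10.47) and Igfbp3 (-10.11). The last 4 had 0 UMIs in the i4F lymphatic sums, so their fitted sizes depend on the prior count and are no bound. Ptgs2 and Meg3 had 0 UMIs in WT 1 as well and stood at 56.6 and 198 CPM in WT 2. Ighm stood at 0 and 108 CPM in WT and 52.6, 0 and 530 CPM in i4F lymphatic sums, where i4F mouse 2 was not in the fit. The B cell gene Cd79a moved with it, at 0 and 90.5 CPM in WT and 0, 0 and 407 CPM in i4F lymphatic sums, and 2 of the 46 i4F cells were in the B lymphocyte cluster. Stmn1 stood at 17.2 and 22.6 CPM in WT and 421, 0 and 35.4 CPM in i4F lymphatic sums, and Pycard at 17.2 and 11.3 CPM and 447, 0 and 17.7 CPM. In both the high value was that of i4F mouse 1, whose lymphatic sum also held 8945.0 CPM of macrophage list genes and 1157.6 CPM of cell cycle genes, and the part of such RNA was not tested. With endothelial clusters alone, Hspa1a, Cd2, Fn1 and Igfbp3 were still called, with adjusted p of 7.7e-06, 0.000789, 0.0144 and 0.0108 in edgeR, while Ighm, Stmn1, Pycard, Ptgs2 and Meg3 were not. With all 7 mice Hspa1a (0.103) and Pycard (0.22) lost their calls.

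After caerulein, the values were higher for Nrp1 (6.01 ± 1.07, adjusted p = 8.87e-06 in edgeR) and for Reg3a (9.76), Col15a1 (9.02), Cxcl14 (8.86) and 1810009J06Rik (8.57). The last 4 had 0 UMIs in the WT lymphatic sums, so their fitted sizes are no bound either. In caerulein mice 1 and 2, Nrp1 stood at 122 and 0 CPM, Reg3a at 135 and 0 CPM, Col15a1 at 97.9 and 0 CPM and Cxcl14 at 428 and 0 CPM in lymphatic sums, so that all 4 were found in mouse 1 alone. Reg3a is among the 20 acinar genes, and it stood at 52.6, 380 and 2369.2 CPM in the i4F lymphatic sums. The blood vessel genes Rgcc and Cd93 stood at 196 and 135 CPM in the lymphatic sum of caerulein mouse 1. The whole blood vessel list summed to 4014.4 and 3469.1 CPM in WT lymphatic sums and to 1810.6 and 3754.2 CPM after caerulein. The part of acinar and blood vessel RNA in these values was not tested. They were lower for Pdpn (-6.10 ± 0.70), Ifi27l2a (-5.52 ± 0.61, 2.26e-15), Bmp2k (-5.35 ± 1.42, 0.0182), Mrc1 (-5.04 ± 0.71, 2.38e-09) and Sirpa (-4.99 ± 1.20, 0.00504). With endothelial clusters alone none of the 5 higher genes was called, and of the 5 lower ones Pdpn, Ifi27l2a, Mrc1 and Sirpa were, while Bmp2k had an adjusted p of 0.0842 in edgeR. Mrc1 and Sirpa are also genes of macrophages, whose list genes were higher in blood endothelial sums after caerulein, and the part of such RNA was not tested.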

How the results depend on the processing

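Depth and cell number limit these results: lymphatic sums of the conditions held 7192 to 176702 UMIs from 9 to 50 cells, caerulein was 1 mouse in the gene tests, and calls of changed genes rested on single mice. In WT, genes higher and lower numbered 204 and 369 with 5 CPM added and 55 and 83 with 50 CPM, and 162 to 184 and 212 to 248 in single mice. All 25 named genes were past 4-fold in each of these alternatives. They were chosen for extreme ratios past that line in both mice or as markers, so this adds little support. The mean WT share of 0.834% was 1.14% among cells with at least 500 genes, 3.62% among endothelial cells and 0.79% to 0.878% in single mice.

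The share of all cells was lower in i4F (-0.707 to -0.597 percentage points with 1 mouse left out) and caerulein mice (-0.702 to -0.637) in every alternative run. Among endothelial cells the i4F difference ranged from -0.759 to 0.214 with 1 mouse left out (0.00358 without WT 2). The caerulein difference of 0.418 was 0.0781 without Mmrn1, turned to -0.178 with 4 of 6 markers, -0.579 within endothelial clusters, -2.52 in cells thinned to 1000 UMIs and -1.28 in cells with at least 500 genes, and ranged from -0.322 (without caerulein mouse 1) to 1.16. The cause was not tested.

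Genes called in lymphatic cells of i4F mice (0) numbered 1 with DESeq2, 79 with no filter and 0 to 57 with 1 mouse left out (46 without i4F 1, 57 without i4F 3). Those of caerulein (4) numbered 14 with DESeq2, 147 with no filter, 0 with the library name series as a term, 114 in a fit of the 2 groups alone, 0 with 2 of 6 markers, 1 within endothelial clusters (Cxcl2, adjusted p = 0.0401 in edgeR), 0 with all 7 mice and 0 to 199 with 1 mouse left out (0 without WT 1, 14 without WT 2, 199 without i4F 1, 73 without i4F 3). Interactions called for i4F (33) numbered 0 with DESeq2, 0 with no term for the mouse and 10 to 110 with 1 mouse left out (14 without WT 1, 10 without WT 2, 20 without i4F 1, 110 without i4F 3). Those for caerulein (86) numbered 13 with DESeq2, 0 with no term for the mouse, 53 within endothelial clusters (2 higher and 51 lower, with 37 of the 45 lower and 0 of the 41 higher genes shared), and 21 to 130 with 1 mouse left out (21 without WT 1, 35 without WT 2, 130 without i4F 1). No fit without caerulein mouse 1 was possible for caerulein.

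A replicate block left no residual degree of freedom with 5 mice. With all 7 mice, the replicate block called 21 genes for i4F and 5 for caerulein, and with the caerulein numbers crossed 1 and 0. Fits of all 7 mice, the rule of 2 markers without Ccl21a, the rule without Mmrn1, the block fits and the removal of 2 mixed cells were added after seeing the data.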

Other observations

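Gm42418, which overlaps ribosomal RNA sequence, and the nuclear RNA Malat1 were among the most abundant transcripts of the cluster, with Malat1 at 27072.5 and 25021.2 CPM in lymphatic and 20209.0 and 27136.3 CPM in blood endothelial cells. Malat1 was in 85 of the 88 cells. The chemokine gene Ccl2 had 63 UMIs in 8 cells, of which 48 were in 1 cell. Slc45a3, a solute carrier gene named after its values were seen, stood at 342 and 251 CPM in lymphatic and 0 and 0.406 CPM in blood endothelial cells, and the cluster held 21.9% of its UMIs in the WT pancreas.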
